A study of Mus musculus with 20 samples.

Results

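Oncofetal liver genes were examined in liver tumours of mice with a conditional knockout of Apc, the scaffold that marks beta-catenin for destruction in the Wnt pathway. A named set of genes was taken, Afp, H19, Igf2, Gpc3, Igf2bp1, Igf2bp3, Lin28b and Peg3, and every Affymetrix probe set whose only gene symbol was one of these was followed. That gave 24 probe sets of 7 genes, out of 34945 probe sets of 18193 genes with a single symbol. H19 was not analysed here, because its 1 probe set carries a second symbol.

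Oncofetal genes are active in fetal liver, become nearly silent in hepatocytes after birth and are switched on again in some liver tumours, where Afp and Gpc3 serve as diagnostic markers. Igf2 and Peg3 are imprinted and expressed from the paternal allele. The RNA-binding proteins of the Igf2bp family and Lin28b belong to a fetal programme of growth control, in which Lin28b blocks the maturation of let-7 microRNAs and Igf2bp1 and Igf2bp3 bind Igf2 and other growth-related transcripts.

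All 20 samples came from male C57BL/6 mice with the genotype conditional APCko, in 4 groups of 5. They were adenomas from mice fed 0.05% phenobarbital (group APCko_Adenoma), carcinomas from mice without the drug (APCko_Carcinoma), non-tumour liver of mice on phenobarbital (PB_NT) and non-tumour liver of mice without it (H2O_NT, called untreated here). Per the labels, tamoxifen (0.75 mg, injected once into the peritoneum) was given at 6 weeks of age, and the feeding of phenobarbital or plain chow began 1 week afterwards and lasted 9 months. The design text of the series names the carcinogen DEN as initiator instead, and which agent was used was not settled. The promoter that drives the Cre and the deleted part of Apc are not given in the sources used here. Wild-type liver was not analysed here, and diet and tumour stage differ together between the tumour groups, so these cannot be told apart. No label ties a sample to a mouse, so the p-values measure spread between samples that may be partly technical. Untreated arrays 3 and 4 stood apart from the rest of their group in earlier readings of these data. Carcinoma and phenobarbital results that turn on them are therefore also given without them. The mean correlation of arrays 3 and 4 with their group, 0.9901 and 0.9884, was close to that of the other untreated arrays (0.9899 to 0.9905).

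Levels are log2 expression values, so a difference of 1 is a doubling, and levels of different probe sets cannot be set against each other. Array medians lay between 5.52 and 5.63. Apc itself, on its brightest probe set, spanned 8.79 to 9.25 in adenomas, 10.53 to 10.97 in carcinomas, 8.43 to 8.71 in phenobarbital-treated liver and 8.64 to 8.97 in untreated liver, and whether this probe set lies in the deleted part is not known. Hepatocyte markers were high in both non-tumour groups. Their mean level over 10 genes was 12.06 to 12.97 in adenomas, 6.30 to 10.39 in carcinomas, 13.13 to 13.26 in phenobarbital-treated liver and 13.30 to 13.60 in untreated liver. All 10 hepatocyte markers fell in carcinomas, and 2 of 10 in adenomas, against their own liver. Of all genes, read from 1 probe set each, 37.3% were lower in carcinomas and 10.5% in adenomas. In bulk tissue, fewer cells of a type and less RNA per cell cannot be told apart, and this touches every comparison that follows.

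In build GRCm38.p6 of RefSeq the genes lie at chr5:90490714-90508907 (Afp), chr7:142650768-142666816 (Igf2), chrX:52272426-52613974 (Gpc3), chr6:49085218-49215469 (Igf2bp3), chr11:95957163-96005944 (Igf2bp1), chr10:45376617-45486314 (Lin28b) and chr7:6703892-6730462 (Peg3). Promoter windows of 4 members whose levels changed, a choice made with their values known, are printed first, since they show how the starts of genes that moved differently are built. Each is the 250 bases before the transcript start in the RefSeq promoter table, read 5′ to 3′ on the gene's strand in build GRCm38.p6. The Afp window lies at chr5:90490464-90490713 on the plus strand, Gpc3 at chrX:52613975-52614224, Igf2bp3 at chr6:49214955-49215204 and Peg3 at chr7:6730420-6730669, all 3 on the minus strand. The start used for Igf2bp3 lies inside the gene's listed span, and so does its whole window, while the Peg3 window overlaps the listed span at its end. Capitals mark the letters of a TATA box (TATAAA on the same strand) and of half-sites of the hepatocyte factor HNF1 (GTTAAN on either strand).
Afp: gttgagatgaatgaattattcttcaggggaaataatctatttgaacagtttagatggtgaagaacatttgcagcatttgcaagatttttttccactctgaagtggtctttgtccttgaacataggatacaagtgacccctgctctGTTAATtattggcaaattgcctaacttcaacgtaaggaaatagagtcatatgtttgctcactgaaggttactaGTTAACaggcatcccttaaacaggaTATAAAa
Gpc3: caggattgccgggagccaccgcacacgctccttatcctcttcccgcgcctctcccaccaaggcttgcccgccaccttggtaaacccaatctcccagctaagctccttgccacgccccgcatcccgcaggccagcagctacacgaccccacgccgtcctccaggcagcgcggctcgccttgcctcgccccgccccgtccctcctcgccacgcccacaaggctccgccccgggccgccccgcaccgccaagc
Igf2bp3: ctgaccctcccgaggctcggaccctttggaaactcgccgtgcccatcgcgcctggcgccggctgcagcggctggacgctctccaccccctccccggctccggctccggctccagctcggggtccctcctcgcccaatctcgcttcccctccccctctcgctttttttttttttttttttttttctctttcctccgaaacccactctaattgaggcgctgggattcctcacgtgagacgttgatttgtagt
Peg3: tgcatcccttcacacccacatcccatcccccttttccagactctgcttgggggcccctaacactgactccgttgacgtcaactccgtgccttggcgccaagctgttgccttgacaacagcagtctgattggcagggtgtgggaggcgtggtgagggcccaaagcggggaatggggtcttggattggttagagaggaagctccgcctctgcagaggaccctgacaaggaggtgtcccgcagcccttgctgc

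The Afp stretch is 36% G and C with 1 CpG, while those of Gpc3, Igf2bp3 and Peg3 hold 71.6%, 60.4% and 60.4% G and C with 25, 21 and 8 CpG. The medians over all 32851 mouse promoter windows of this length were 52.4% and 6 CpG. In Afp the half-site letters stand at positions -105 to -100 and at -32 to -27 before the start. The second of them is a palindrome that reads alike on both strands. The letters TATAAA stand at -7 to -2, with no overlap between these stretches. Positions count from the RefSeq start, and whether transcription starts there in these samples was not tested. Such half-site letters occur in 21.6% of all windows and TATAAA in 7.59%. The core letters of TCF/LEF, the DNA-binding partners of beta-catenin (CTTTGA on either strand, in 13.8% of all windows), do not occur in these 4 windows, and occur once in 1 of 4 windows listed for Igf2. A match or its absence describes the letters only. Of the 7 members, 6 had a window in the table, Igf2bp1 being the one without.

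On at least 1 probe set each, Afp, Gpc3 and Igf2bp3 were higher and Igf2bp1 and Peg3 lower in adenomas. In carcinomas Gpc3 and Peg3 were higher and Igf2bp1 lower on at least 1 probe set each. Afp, Igf2bp3 and Peg3 were lower there on 1 probe set only. For Afp and Peg3 that probe set was dim (-0.28 and -0.20), and neither fall passed under quantile normalization. In adenomas against phenobarbital-treated liver 12 of 24 probe sets passed the test (limma, adjusted p under 0.05 over all 45037 probe sets). Higher were 9, or 37.5%, against 9.62% of all probe sets, and lower were 3, or 12.5%, against 9.18% of all. In carcinomas against untreated liver 10 passed, 4 higher (16.7%, against 28.3% of all probe sets) and 6 lower (25%, against 34.9% of all). The median log2 fold of the members was 0.21 in adenomas and -0.19 in carcinomas, beside -0.05 and -0.11 over all probe sets. Probe sets of 1 gene share their target, so these shares rest on few genes: Afp and Igf2bp3 gave 4 each of the 9 rises in adenomas, and Gpc3 the remaining one.

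Phenobarbital in non-tumour liver moved no member past the test. Of all probe sets 0.127% were higher and 0.02% lower in that comparison. Among the members 1 probe set, Peg3 1417356_at, had an unadjusted p under 0.05. It read 5.02 ± 0.16 in phenobarbital-treated liver and 4.41 ± 0.31 in untreated liver (SD, n = 5 each), a log2 difference of 0.61 (SE 0.26, limma adjusted p = 0.732). Afp on 1416645_a_at differed by -0.08 (SE 0.49), and by 0.55 without untreated arrays 3 and 4 (adjusted p = 1.0 in both).

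**Figure D1:**
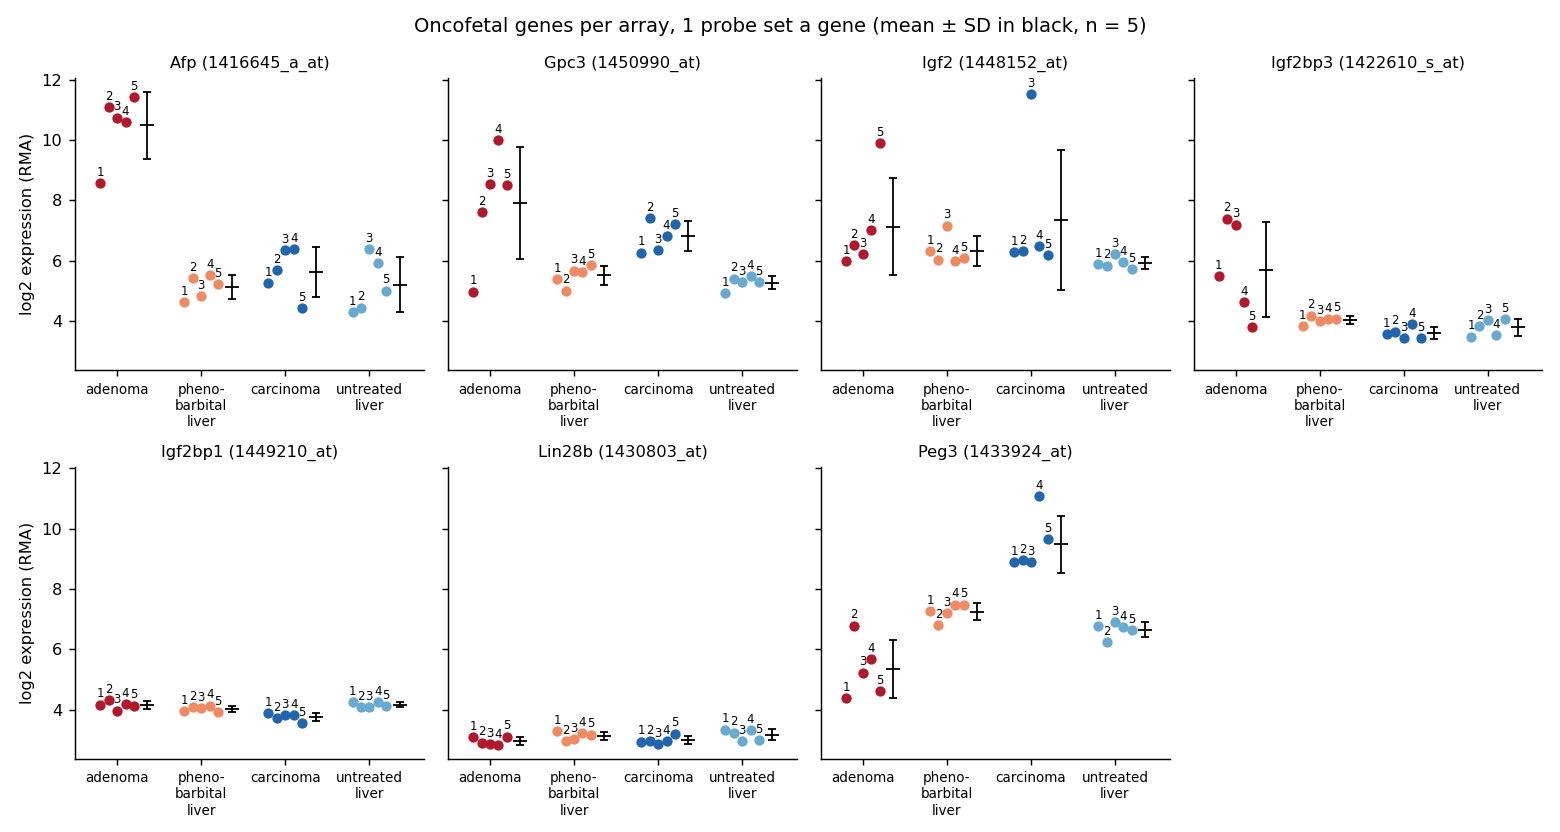
Log2 expression of 1 probe set for each of the 7 members on every array, grouped on the horizontal axis. Array numbers stand above the points, with the mean ± SD (n = 5) in black. Each member is shown by the probe set with the largest fold against its own liver. For Igf2bp1 (1449210_at) and Igf2bp3 (1422610_s_at) this is not the brightest. Afp is high in all 5 adenomas, Gpc3 in 4 adenomas and moderately in all 5 carcinomas, Igf2 in 1 tumour of each kind, Igf2bp3 in 3 adenomas, and Peg3 in all 5 carcinomas.

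Afp, which encodes the fetal counterpart of serum albumin, was the member that rose most, and it did so in adenomas. Its brightest probe set, 1416645_a_at, read 8.56, 11.10, 10.74, 10.59 and 11.42 in adenomas 1 to 5, against 4.63, 5.41, 4.83, 5.53 and 5.22 in phenobarbital-treated liver. All adenomas lay far above every liver sample, with adenoma 1 about 2 log2 units below the other 4. The rise was 5.36 on the log2 scale (SE 0.49, 95% interval 4.34 to 6.38, limma adjusted p = 2.19e-07), or 40.9-fold.

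In carcinomas no such rise passed the test. The same Afp probe set read 5.26, 5.67, 6.34, 6.39 and 4.42 in carcinomas 1 to 5 and 4.29, 4.44, 6.38, 5.92 and 5.0 in untreated liver, and the groups overlapped almost completely. The difference was 0.41 (SE 0.49, interval -0.61 to 1.43, limma adjusted p = 0.472). Without untreated arrays 3 and 4, which held the highest Afp values of their group, it was 1.04 (adjusted p = 0.0913). On 1416646_at and 1436879_x_at the Afp difference was -0.38 and -0.15 with these arrays, and 0.06 and 0.11 without them, and passed the test in neither case. The spread within untreated liver (SD 0.92) was wider than in phenobarbital-treated liver (SD 0.38). Adenomas exceeded carcinomas by 4.86 (SE 0.49, adjusted p = 3.91e-08).

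The tumour effects themselves were compared as the adenoma change minus the carcinoma change, each against its own liver. For Afp this difference was 4.94 (SE 0.69, limma adjusted p = 7.36e-06), and 4.32 (adjusted p = 5.93e-05) without untreated arrays 3 and 4. It passed the test on all 5 Afp probe sets, where it spanned 0.54 to 4.94. In this comparison 18.6% of all probe sets were higher and 21.3% lower, while of the 24 member probe sets 12 (50%) were higher, from 3 genes, and 3 (12.5%) lower, from 1 gene.

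The other Afp probe sets differed in how much they recorded. Probe sets 1416646_at and 1436879_x_at rose in adenomas by 3.81 (SE 0.40) and 3.79 (SE 0.41), with no overlap between adenomas and phenobarbital-treated liver. Probe set 1436881_x_at rose by 0.90 (SE 0.18, adjusted p = 0.00114). Its suffix, shared with 1436879_x_at, marks probes that can bind related transcripts. Probe set 1436880_at stayed between 3.49 and 4.32 on all 20 arrays and gave 0.26 in adenomas (SE 0.10, adjusted p = 0.091). In carcinomas this dim probe set alone passed the test, at -0.28 (SE 0.10, adjusted p = 0.0242). That call ended without untreated array 1 or 2 or carcinoma 1, 3 or 5 (-0.25 to -0.26, adjusted p from 0.0519 to 0.0594) and under quantile normalization (-0.15, adjusted p = 0.226).

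Albumin itself gave a different picture from its fetal counterpart. Alb spanned 14.88 to 14.94 in adenomas and 14.89 to 14.95 in phenobarbital-treated liver, close to the table's highest value, where arrays resolve little. In carcinomas it spanned 9.18 to 14.03, against 14.92 to 15.02 in untreated liver, a log2 fold of -2.30 (SE 0.58, adjusted p = 0.00186). With untreated liver at the top of the scale, that fold may understate the fall. Carcinoma 2 held the lowest value, and without it the fold was -1.43, still past the test.

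Gpc3, an X-linked heparan sulfate proteoglycan anchored to the cell surface that modulates growth factor signalling, was higher in both kinds of tumour. Its only probe set, 1450990_at, read 4.97, 7.62, 8.54, 9.98 and 8.5 in adenomas 1 to 5 and 5.38, 5.01, 5.67, 5.62 and 5.86 in phenobarbital-treated liver. Adenoma 1 lay at the level of liver and the other 4 lay above it. The rise was 2.41 on the log2 scale (SE 0.56, interval 1.24 to 3.59, adjusted p = 0.00451), or 5.33-fold. Without adenoma 1 the rise of Gpc3 was 3.15 (adjusted p = 2.35e-06).

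In carcinomas Gpc3 read 6.27, 7.42, 6.35, 6.82 and 7.21, against 4.92, 5.40, 5.28, 5.47 and 5.28 in untreated liver. Every carcinoma lay above every untreated sample. The rise was 1.54 (SE 0.56, interval 0.37 to 2.71, adjusted p = 0.0223), or 2.91-fold. The Gpc3 call fell just short without carcinoma 2 (1.39, adjusted p = 0.0522) and without untreated arrays 3 and 4 together (1.61, adjusted p = 0.0523). It held under 16 of 18 alternatives, with a lowest limma adjusted p of 9.37e-05.

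The Gpc3 level differed by 1.11 between adenomas and carcinomas (SE 0.56, adjusted p = 0.0998), and the tumour effects differed by 0.87 (SE 0.79, interval -0.78 to 2.53, adjusted p = 0.408). One array decided both values: without adenoma 1 they were 1.85 (adjusted p = 0.000113) and 1.61 (adjusted p = 0.00884). Among all probe sets 28.6% were higher and 26.9% lower in adenomas than in carcinomas, and among the 24 member probe sets 13 (54.2%) were higher, from 4 genes, and 3 (12.5%) lower, from 1 gene.

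Igf2, the fetal growth factor that acts through the IGF1 and insulin receptors, stood far above liver in single tumours. Probe set 1448152_at read 5.98, 6.52, 6.21, 7.02 and 9.91 in adenomas, against 6.32, 6.04, 7.16, 5.98 and 6.07 in phenobarbital-treated liver. Only adenoma 5 stood above the range of its liver group. In carcinomas it read 6.28, 6.32, 11.51, 6.48 and 6.17, against 5.88, 5.84, 6.22, 5.95 and 5.71 in untreated liver. Of the carcinomas 4 lay above the range of untreated liver and 1 within it, and only carcinoma 3 lay far above.

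Carcinoma 3 thus lay 5.59 log2 units above the untreated mean of Igf2, and the next highest carcinoma 0.56 above it. Neither group comparison passed the test: the fold was 0.82 in adenomas (SE 0.82, adjusted p = 0.557) and 1.43 in carcinomas (SE 0.82, adjusted p = 0.133). Without adenoma 5 the first was 0.12 (adjusted p = 0.943), and without carcinoma 3 the second was 0.39 (adjusted p = 0.524). Each of these fits still pooled the spread of all groups, including the other high tumour, so a small rise could be missed. The other Igf2 probe set, 1415931_at, stayed between 3.79 and 4.70 on all arrays and did not record the high tumours, reading 4.53 in adenoma 5 and 4.6 in carcinoma 3. It gave -0.23 in carcinomas (SE 0.13, adjusted p = 0.122), a value that passed the test with arrays centred on their medians (adjusted p = 0.0496), with array weights (0.0279) and without carcinoma 3 (-0.34, 0.0175).

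**Figure D2:**
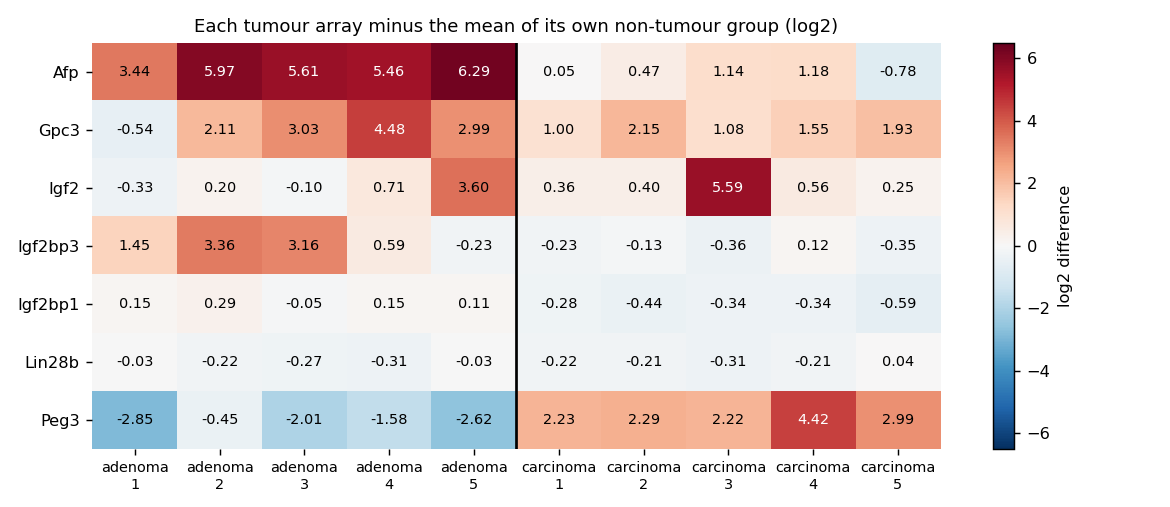
Difference between each tumour array and the mean of its own non-tumour group, in log2 units. Each member is shown by the probe set with the largest fold against its own liver (1449210_at for Igf2bp1 and 1422610_s_at for Igf2bp3). Columns are arrays and rows are genes. Adenoma 1 combines the smallest Afp rise among adenomas (3.44) with no Gpc3 rise (-0.54), and the Igf2 values of adenoma 5 (3.60) and carcinoma 3 (5.59) stand alone in their row.

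Igf2bp3, an RNA-binding protein that stabilises growth-related transcripts and is nearly absent from adult liver, rose in some adenomas. Probe set 1422610_s_at read 5.48, 7.39, 7.19, 4.62 and 3.80 in adenomas, against 3.84, 4.18, 4.0, 4.07 and 4.08 in phenobarbital-treated liver. Adenomas 2 and 3 were highest, adenoma 1 intermediate, adenoma 4 slightly raised and adenoma 5 below the liver range. The mean rise was 1.66 (SE 0.46, interval 0.70 to 2.63, adjusted p = 0.0151), or 3.17-fold.

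The order of the adenomas was the same on a further Igf2bp3 probe set. Probe set 1422611_s_at read 5.12, 6.72 and 6.09 in adenomas 1 to 3 and 4.39 and 4.02 in adenomas 4 and 5, a rise of 1.28 (SE 0.34, adjusted p = 0.0111). Probe set 1433732_x_at rose by 0.91 (SE 0.27, adjusted p = 0.0245) and 1450687_at by 0.87 (SE 0.27, adjusted p = 0.0283). The suffix of the first of these marks probes that can bind related transcripts. Probe set 1453957_a_at gave 0.34 (SE 0.12, adjusted p = 0.0537), and passed under 6 alternatives, such as quantile normalization (0.40, adjusted p = 0.0268). The spread of Igf2bp3 among adenomas was many times that within liver (SD 1.57 and 0.13 on 1422610_s_at), and when only these groups were fitted all 4 calls ended (adjusted p from 0.0542 to 0.0966). With all groups fitted, 1450687_at also lost its call without adenoma 2 or 3 or phenobarbital array 1, 2 or 4 (0.63 to 0.85, adjusted p from 0.056 to 0.0886), and 1433732_x_at without adenoma 2 or 3 or phenobarbital array 1 (0.63 to 0.84, adjusted p from 0.0614 to 0.0733).

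The brightest Igf2bp3 probe set, 1433731_at, behaved differently. It read 7.59, 7.86, 7.84, 7.70 and 7.43 in adenomas and 7.53, 7.54, 7.54, 7.46 and 7.53 in phenobarbital-treated liver, a difference of 0.17 (SE 0.10, adjusted p = 0.282). In carcinomas it read 6.54, 6.94, 6.49, 6.74 and 6.59, below all untreated samples at 7.2, 7.5, 7.41, 7.18 and 7.35. The log2 fold was -0.67 (SE 0.10, adjusted p = 7.59e-06). Over all arrays 72% of all probe sets had a lower mean than 1433731_at. That level sits poorly with a gene nearly absent from adult liver. Whether this probe set records Igf2bp3 RNA was not tested. The other 5 Igf2bp3 probe sets ranged from -0.43 to -0.19 in carcinomas and did not pass, with all 5 at or below 5.71 in untreated liver. Of these, 1422611_s_at (-0.43) passed when only the groups compared were fitted (adjusted p = 0.00679), and 1453957_a_at (-0.25) with centring or without untreated array 1 (adjusted p = 0.0279 and 0.0262).

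Adenomas exceeded carcinomas on all 6 Igf2bp3 probe sets, by 0.57 to 2.11 (adjusted p of at most 0.00352). The tumour effects also differed on all 6, by 0.59 to 1.86. For 1422610_s_at the difference of 1.86 (SE 0.65, adjusted p = 0.0286) had adjusted p = 0.0545 without adenoma 3 and 0.0575 without untreated arrays 3 and 4. For 1450687_at the difference of Igf2bp3 effects was 1.09 (SE 0.38, adjusted p = 0.028), and it had adjusted p from 0.0503 to 0.0556 without adenoma 2, without adenoma 3 or without untreated arrays 3 and 4.

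Igf2bp1, the paralogue of Igf2bp3 with a like role in fetal tissues, stayed low. Its 4 probe sets spanned 3.05 to 5.85 over the 20 arrays. In adenomas 1 of 4 passed: 1455223_at read 3.59, 3.18, 3.33, 3.52 and 3.59, against 3.70, 3.77, 3.63, 3.87 and 3.86 in phenobarbital-treated liver, a log2 fold of -0.32 (SE 0.10, adjusted p = 0.026). In carcinomas 3 of 4 fell, with log2 folds of -0.40 on 1449210_at (SE 0.08, adjusted p = 0.00029), -0.37 on 1455223_at (SE 0.10, adjusted p = 0.00272) and -0.33 on 1459825_x_at (SE 0.14, adjusted p = 0.0452).

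Dim probe sets in general shifted downwards in tumours. The 22133 probe sets with a mean below the median of all values had a median log2 fold of -0.17 in carcinomas, with quartiles at -0.35 and 0.09, and of -0.07 in adenomas, with quartiles at -0.18 and 0.04. Thus 2 of the 3 Igf2bp1 falls in carcinomas lay just beyond the lower quartile and the third lay within it. The Igf2bp1 call on 1459825_x_at ended when only the groups compared were fitted (adjusted p = 0.0698) and without untreated array 4 or 5 or carcinoma 1, 4 or 5 (-0.22 to -0.32, adjusted p from 0.0794 to 0.155). The adenoma call on 1455223_at ended under quantile normalization (-0.27, adjusted p = 0.0661) and without phenobarbital array 4 or 5 or adenoma 2 or 3 (-0.26 to -0.30, adjusted p from 0.0631 to 0.0764).

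Lin28b, the let-7 antagonist of fetal tissues, stayed near the floor of the array. Its only probe set, 1430803_at, spanned 2.82 to 3.34 over all 20 arrays, and 0.113% of all probe sets had a lower mean. The difference was -0.17 in adenomas (SE 0.10, adjusted p = 0.275) and -0.18 in carcinomas (SE 0.10, adjusted p = 0.128; -0.25 and 0.0448 with arrays centred on their medians). Nothing can be said here of a change below that floor.

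Peg3, an imprinted zinc finger protein with roles in growth and stress responses, moved in opposite directions in the tumour groups. Its brightest probe set, 1433924_at, read 8.89, 8.95, 8.88, 11.08 and 9.65 in carcinomas, against 6.77, 6.24, 6.91, 6.74 and 6.63 in untreated liver. Every carcinoma lay above every untreated sample, carcinoma 4 the furthest. The rise was 2.83 (SE 0.40, interval 1.99 to 3.67, adjusted p = 4.06e-06), or 7.11-fold.

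In adenomas the same Peg3 probe set read 4.39, 6.79, 5.23, 5.67 and 4.62, against 7.26, 6.80, 7.19, 7.48 and 7.49 in phenobarbital-treated liver. All adenomas lay below all samples of their liver group, adenoma 2 by less than 0.01. The log2 fold was -1.90 (SE 0.40, interval -2.74 to -1.07, adjusted p = 0.00205). The adenoma mean minus the carcinoma mean was -4.15 (SE 0.40, adjusted p = 2.23e-08), and the tumour effects differed by -4.73 (SE 0.57, adjusted p = 1.03e-06).

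A pair of further Peg3 probe sets rose in carcinomas, 1417355_at by 1.52 (SE 0.32, adjusted p = 0.00032) and 1417356_at by 1.55 (SE 0.26, adjusted p = 3.3e-05), again with no overlap and with carcinoma 4 highest. In adenomas 1417355_at fell by 0.93 on the log2 scale (SE 0.32, adjusted p = 0.045), and 1417356_at gave -0.62 (SE 0.26, adjusted p = 0.105). The fall of Peg3 on 1417355_at kept its call under 7 of 17 alternatives (adjusted p from 0.00526 to 0.109). It ended on leaving out any 1 array of these groups other than adenoma 2 and adenoma 4, with trend and robust variances, and with centred arrays. The value on 1417356_at passed with array weights (adjusted p = 0.0368) and when only the groups compared were fitted (0.00246). The tumour effects differed by -2.45 and -2.17 on these probe sets (adjusted p = 0.000154 and 7.01e-05). The remaining Peg3 probe sets, 1447731_at and 1447732_x_at, sat near the floor at 2.88 to 3.48. The second of them passed in carcinomas at -0.20 (SE 0.07, adjusted p = 0.0185), but not under quantile normalization (-0.09, adjusted p = 0.274) nor without untreated arrays 3 and 4 (-0.16, adjusted p = 0.108).

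**Figure D3:**
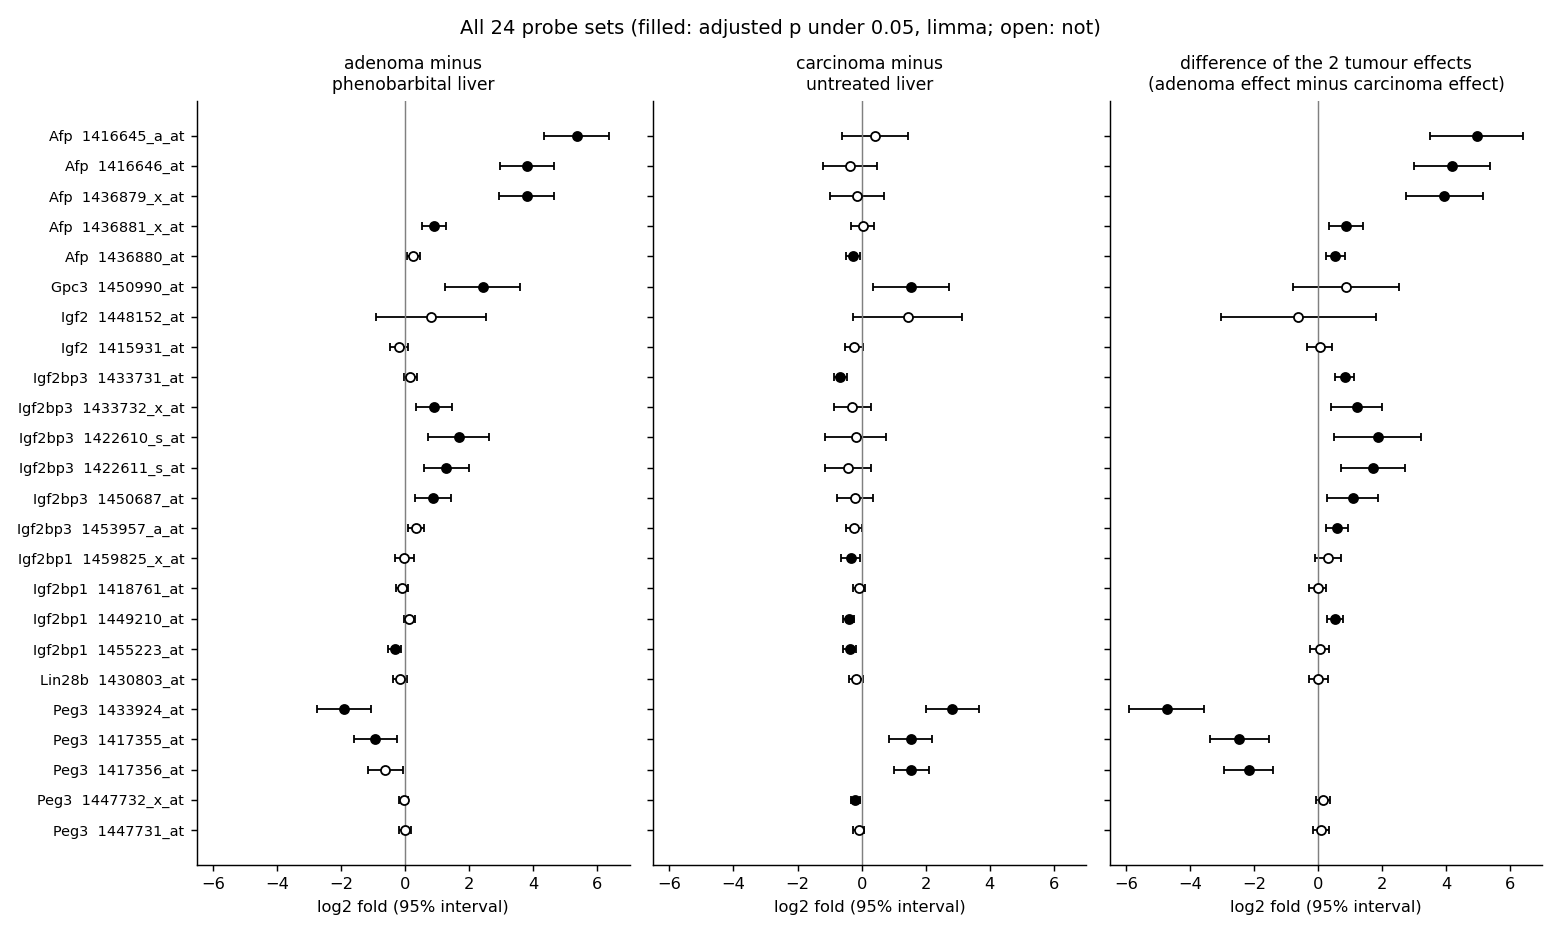
Log2 folds of all 24 probe sets with 95% intervals, for adenomas minus phenobarbital-treated liver, carcinomas minus untreated liver and the difference of these effects; filled points passed the test. Afp and Igf2bp3 lie to the right and Peg3 to the left in the difference panel, while the Gpc3 and Igf2 intervals there include 0.

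Markers of other cell types also differed between tumours and liver, more often in carcinomas, where more genes passed the test in general. Of all genes, read from 1 probe set each, 31.3% were higher and 37.3% lower in carcinomas. In adenomas 12.8% were higher and 10.5% lower. Of 8 stellate cell and fibroblast markers 5 rose and 1 fell in carcinomas, where their mean level was 9.71 to 11.02, against 7.95 to 8.97 in untreated liver. In adenomas 3 rose and 3 fell, at 7.85 to 9.42, against 8.31 to 8.62 in phenobarbital-treated liver. Carcinoma 4, the array with the highest Peg3 level, had a stellate marker mean of 10.25, the median of its group, and carcinoma 3, the array with high Igf2, had the lowest at 9.71. Of 7 endothelial markers 6 fell in carcinomas (4.77 to 5.91, against 7.79 to 8.12 in untreated liver). All 4 measured erythroid markers fell there too (5.19 to 6.34, against 7.0 to 7.17 in untreated liver). Of 5 biliary and progenitor markers 2 rose and 1 fell in carcinomas (5.97 to 7.41, against 4.81 to 5.61 in untreated liver), and of 7 macrophage markers 1 rose and 3 fell (7.15 to 8.93, against 8.66 to 9.66 in untreated liver). Of 5 lymphocyte markers 1 rose and 3 fell in carcinomas (4.89 to 5.37, against 5.26 to 5.49 in untreated liver). Among carcinomas, carcinoma 4 had the highest biliary and progenitor mean (7.41), and carcinoma 3 the highest erythroid mean (6.34). Carcinoma 1 had the group's highest stellate mean (11.02) but its lowest Gpc3 (6.27). Among adenomas, adenoma 1 was lowest and adenoma 4 highest in stellate mean (7.85 and 9.42) and Gpc3 (4.97 and 9.98). Untreated arrays 3 and 4 led their group in stellate mean (8.97, 8.83) and in Afp on its brightest probe set (6.38, 5.92). The part of these marker shifts in the members' changes was not tested. In adenomas, where Afp changed most, 1 endothelial marker rose and 1 fell, 1 macrophage marker rose and 2 fell, 1 of 4 erythroid markers fell, and no biliary or lymphocyte marker passed the test.

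The genes that resembled each member most were found by the root mean square difference of log2 values over the 20 arrays after each gene was centred, as a description only. For Afp they were Mogat2, Gipc2 and Mtmr11, at differences of 0.77, 0.82 and 0.90, where the median gene lay at 2.41. Mogat2, an enzyme of fat absorption in the intestine, read 10.38 ± 0.64 in adenomas and 6.14 ± 0.30 in phenobarbital-treated liver, and 6.46 ± 0.62 in carcinomas and 5.65 ± 0.31 in untreated liver (SD, n = 5 each). For Peg3 they were Nfat5, Lama1 and Fut8 (0.70, 0.70 and 0.71, median gene 1.68). Lama1, a laminin chain of embryonic basement membranes, averaged 4.53 in adenomas and 5.47 in phenobarbital-treated liver, and 7.59 in carcinomas and 5.50 in untreated liver.

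For Gpc3 the nearest were Cyb5r1, Psph and Slamf9, at 0.73, 0.79 and 0.80, where the median gene lay at 1.44. For the brightest Igf2bp3 probe set the nearest were Cflar, Rfk and Srp9 (0.15 to 0.16, median gene 0.53), all 3 with their lowest mean in carcinomas, as for Cflar with 9.64 in adenomas, 8.77 in carcinomas, 9.46 in phenobarbital-treated liver and 9.5 in untreated liver.

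Companion genes from the same pathways were read from 1 probe set a gene. At that level 12.8% of genes were higher and 10.5% lower in adenomas than in phenobarbital-treated liver, 31.3% higher and 37.3% lower in carcinomas than in untreated liver, and 0.181% higher and 0.0165% lower with phenobarbital in non-tumour liver, where no companion gene passed. The median log2 fold over all genes was -0.03 in adenomas and -0.12 in carcinomas.

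Among other fetal liver and liver tumour markers, 14 of 25 rose in adenomas and none fell, with a median of 1.13, and 13 of 25 rose in carcinomas and 2 fell, with a median of 1.14. Cpe, a carboxypeptidase that processes prohormones, rose by 4.52 in adenomas (SE 0.67, adjusted p = 7.13e-05; 3.86 without adenoma 1 and 5.28 without adenoma 2), and the desaturase Scd2 by 4.5 (SE 0.67). Bex1 and the growth factor Ptn rose in carcinomas by 10.29 (SE 0.50) and 9.01 (SE 0.25). Bex1 averaged 3.54 in untreated liver, near the floor of the array, so its fold may understate the rise. The 2 that fell there were Tspan8 (-0.73) and Dlk1 (-0.23), an imprinted marker of hepatoblasts, with a Dlk1 mean of 4.5 in carcinomas and 4.73 in untreated liver. The Dlk1 call ended under quantile normalization and without untreated array 1 or 4, carcinoma 3 or 5, or untreated arrays 3 and 4 together (adjusted p of at most 0.179).

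The albumin family and the known regulators of Afp gave 4 rises and 9 falls among 15 genes in carcinomas, and 1 rise and 3 falls in adenomas. The medians, -2.30 in carcinomas and -0.01 in adenomas, are the values of Alb itself and share the limit given for it. Afm, the albumin relative afamin, changed by -5.67 in carcinomas (SE 0.35) and -1.27 in adenomas (SE 0.35). Nr5a2, a nuclear receptor that activates Afp, changed by -5.08 in carcinomas (SE 0.18, adjusted p = 4.87e-15), while Foxa2, a pioneer factor of liver genes, rose by 1.79 (SE 0.17) and Zfhx3, a repressor of Afp also called ATBF1, by 2.55 (SE 0.22). In adenomas Onecut1 changed by -2.12 (SE 0.44, adjusted p = 0.00171) and Foxa3 rose by 0.90 (SE 0.29, adjusted p = 0.0327). The Foxa3 call ended without any 1 phenobarbital array or adenoma 1, 2 or 3 (adjusted p of at most 0.0767).

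Zhx2 and Zbtb20, which repress Afp in mouse liver after birth, and Cebpa were added after their values were seen. Zhx2 differed by -0.02 in adenomas (SE 0.15, adjusted p = 0.947) and rose by 1.11 in carcinomas (SE 0.15, adjusted p = 3.2e-06). Zbtb20 differed by 0.03 in adenomas (SE 0.13, adjusted p = 0.929) and rose by 1.35 in carcinomas (SE 0.13, adjusted p = 2.57e-08). Cebpa, a factor of mature hepatocytes, changed by -1.09 in adenomas (SE 0.24, adjusted p = 0.0028) and -4.42 in carcinomas (SE 0.24, adjusted p = 2.65e-12).

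In IGF signalling, 3 of 14 genes rose and 2 fell in adenomas, and 5 rose and 5 fell in carcinomas. Igfbp1, a hepatic IGF-binding protein, rose by 4.74 in adenomas (SE 0.71, adjusted p = 7.67e-05), and Irs2, an adaptor of the insulin and IGF1 receptors, by 1.68 (SE 0.33). Igf1, the main IGF of adult liver, fell to 10.33 in adenomas, against 12.50 in phenobarbital-treated liver (-2.17, SE 0.37, adjusted p = 0.000315), and to 8.49 in carcinomas, against 12.95 in untreated liver (-4.46, SE 0.37, adjusted p = 2.05e-09). In carcinomas Igfals, which holds IGFs in the circulation, changed by -3.59 (SE 0.15), and Igfbp5 rose by 4.70 (SE 0.43) and Irs2 by 2.18 (SE 0.33). Igfals also fell in adenomas, by -0.47 (SE 0.15, adjusted p = 0.0316), a call that ended without phenobarbital array 2, 4 or 5 or adenoma 1, 3 or 4 (adjusted p of at most 0.0928). Igf2r, which clears Igf2 and was also chosen after its values were seen, rose by 1.66 in adenomas (SE 0.19, adjusted p = 3.43e-06) and 0.84 in carcinomas (SE 0.19, adjusted p = 0.000642).

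The Lin28, let-7 and IGF2BP pathway gave 4 rises and 1 fall among 17 genes in adenomas, and 6 rises and 5 falls in carcinomas. Drosha and Dicer1, nucleases of microRNA maturation, changed by 1.09 (SE 0.12) and -0.65 (SE 0.11) in adenomas, and Myc rose by 1.23 (SE 0.35, adjusted p = 0.0173). In carcinomas the let-7 targets Ccnd2 and Hmga2 rose by 4.39 (SE 0.26) and 2.63 (SE 0.13). Dis3l2, which degrades let-7 precursors that Lin28 has marked, changed by -1.02 (SE 0.30, adjusted p = 0.00564), and Mycn by -0.74 (SE 0.09).

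Among imprinted genes, which Igf2 and Peg3 belong to, 3 of 24 rose and 2 fell in adenomas, and 7 rose and 6 fell in carcinomas. Phlda2, a growth-restricting gene of the placenta, rose by 3.47 in adenomas (SE 0.25, adjusted p = 1.36e-08), where Dcn, the matrix protein decorin and also a stellate cell marker, changed by -1.55 (SE 0.34). Grb10, an inhibitor of insulin receptor signalling, rose by 1.96 in adenomas (SE 0.41) and 4.36 in carcinomas (SE 0.41). Slc38a4, a paternally expressed amino acid transporter, changed by -0.99 in adenomas (SE 0.28, adjusted p = 0.0163) and -3.28 in carcinomas (SE 0.28). Ndn, a paternally expressed gene of growth arrest, rose by 3.62 in carcinomas (SE 0.35), and Ascl2 changed by -0.88 (SE 0.12).

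**Figure D4:**
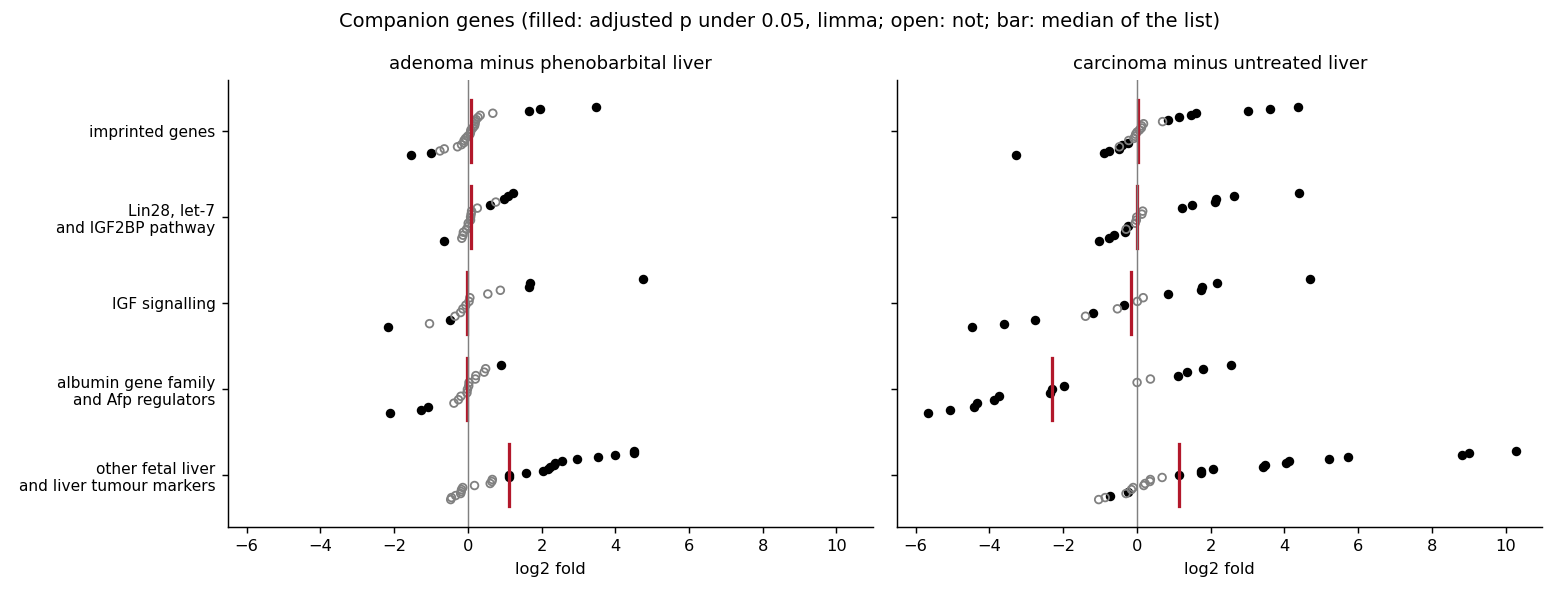
Log2 folds of the companion genes in 5 lists, 1 probe set a gene, for adenomas minus phenobarbital-treated liver and carcinomas minus untreated liver; filled points passed the test and red bars mark the list's median. The median of other fetal liver and liver tumour markers is 1.13 in adenomas and 1.14 in carcinomas.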

How the data were processed

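RNA from snap-frozen tissue was extracted with Trizol and labelled with the 3'IVT Express kit for Affymetrix arrays, per the labels' protocols. The authors deposited log2 values for 45037 probe sets on 20 arrays. RMA is named in the submitters' processing notes, without a version; it equalises arrays and compresses folds of dim probe sets. Precision rests on the number of arrays, 5 a group. Names of probe sets were taken from the platform annotation, with 34741 of 34945 single-symbol probe sets matched by Entrez number to RefSeq (GRCm38.p6). The 932 with several symbols and 9160 with none were tested but not named, so H19 is not reported here.

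All probe sets were fitted with limma 3.58.1 (lmFit, eBayes) in R 4.3.3, 4 group means in 1 fit with 16 residual and 3.75 prior degrees of freedom, two-sided, with Benjamini-Hochberg adjustment over all probe sets of a comparison and a threshold of 0.05. Every adjusted p and SE comes from this fit unless an alternative is named. For companion genes the probe set with the highest mean stood for the gene (_x_at dropped where another existed), with p adjusted over all probe sets. The fitting script was tested on simulated data. Other steps used Python 3.11.15, pandas 2.3.3 and matplotlib 3.10.9.

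Named were all members, up to 2 rising and 2 falling called genes of largest fold per list and comparison, the 3 nearest genes in profile, and genes said to be added later. Members, lists, tests and alternatives were chosen with earlier results of these data known. The alternatives tried were dropping dim probe sets, trend and robust variances, centring, quantile normalization, array weights, a replicate block, only the groups compared, each array left out, untreated arrays 3 and 4 left out, 1 probe set or the mean per gene, and a log2 fold of at least 1. Plots of single arrays show each member's probe set of largest fold, chosen after values were seen. The printed promoters come from RefSeq.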

Additional observations from a re-analysis of the deposited data

Results flagged for a closer look

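Single arrays stood far from the other 4 of their group in 8 of 96 combinations of probe set and group, by Dixon's criterion at 0.71 of the range; chance gives about 1 in 20. On Igf2 1448152_at these were carcinoma 3 at 11.51 (next 6.48), adenoma 5 at 9.91 (next 7.02) and phenobarbital array 3 at 7.16 (next 6.32). On Igf2bp3 they were carcinoma 4 at 5.65 (next 5.14, 1433732_x_at), phenobarbital array 4 at 7.46 (next 7.53, 1433731_at) and untreated array 1 at 3.35 (next 3.67, 1453957_a_at). On Peg3 they were carcinoma 4 at 7.35 (next 5.80, 1417356_at) and carcinoma 5 at 3.10 (next 3.03, 1447732_x_at).

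By the limma interaction 18.6% of all probe sets were higher and 21.3% lower. The adenoma effect differed from the carcinoma effect on 15 of 24 member probe sets, 12 higher (3 genes) and 3 lower (1 gene). The difference was positive on all 5 Afp probe sets, at 4.94, 4.18, 3.94, 0.87 and 0.54 (adjusted p from 5.44e-06 to 0.00858). It was positive on all 6 of Igf2bp3, at 1.86, 1.71, 1.20, 1.09, 0.83 and 0.59 (adjusted p from 6.76e-05 to 0.0286). Igf2bp1 1449210_at gave 0.53 (adjusted p = 0.000989). On Igf2bp3 1433731_at (0.83) and Igf2bp1 1449210_at only the carcinoma effect passed the test, a fall (-0.67 and -0.40). The adenoma effect on them was 0.17 and 0.13 (limma adjusted p = 0.282 and 0.312). The difference was negative on 3 Peg3 probe sets, at -4.73, -2.45 and -2.17 (adjusted p from 1.03e-06 to 0.000154).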

How the results depend on the processing

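Counts of member probe sets called depended on how many were tested. Of 10, 12, 16 and 15 called in carcinomas, adenomas, adenomas against carcinomas and the difference of effects, testing 1 probe set a gene (7 genes) left 3, 3, 3 and 3, and the mean of a gene's probe sets left 3, 4, 4 and 3, fewer by construction. The filter on dim probe sets (26003 kept, 11 of the members) left 5 in carcinomas, 9 in adenomas against carcinomas and 9 in the difference. A log2 fold of at least 1 left 4 in carcinomas and 7 in adenomas. Counts rose to at most 13 in carcinomas (centred arrays), 14 in adenomas (array weights), 19 in adenomas against carcinomas and 16 in the difference (centred arrays). Leaving out single arrays gave 8 to 10 in carcinomas, 8 to 13 in adenomas, 16 to 18 in adenomas against carcinomas, 13 to 16 in the difference and 0 with phenobarbital, where every other alternative also gave 0. Of the companion genes 69 passed in at least 1 of 3 comparisons, and 65 to 70 under the alternatives. Of 2201 values recomputed for single probe sets and genes, 70 lost a call, 31 gained one and none that was called changed sign. Same-numbered arrays deviated together at -0.092 to 0.057, which is too weak to show pairing but cannot exclude shared mice. The same-numbered untreated array was the best match for carcinomas 1, 2 and 4. In adenomas against phenobarbital-treated liver it was the best match for no number. With the replicate block 1 member call ended, Igf2bp1 1459825_x_at in carcinomas (-0.33, adjusted p = 0.0682). Dim probe sets, such as Lin28b's, limit what can be seen.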
